A study of Rattus norvegicus with 12 samples.

Results

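Matrix metalloproteases are zinc enzymes that are secreted or held at the cell surface as inactive proenzymes and that cleave collagens, other matrix proteins and growth factor carriers once they are activated. Tissue inhibitors of metalloproteases (TIMPs) bind the active enzymes and block them, so that matrix turnover depends on both sides. In the uterus these enzymes take part in the breakdown and rebuilding of the lining over the cycle, at implantation and after injury. The genes described here are 10 members of this system, the proteases Mmp2, Mmp3, Mmp7, Mmp9, Mmp11, Mmp14 and Mmp19 and the inhibitors Timp1, Timp2 and Timp3. They were chosen by symbol from a table of 34034 genes, and all 10 were found there. A filter on low counts left 9 of them among 13909 genes that could be tested, and Mmp9 did not pass it.

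The data are 3' mRNA sequencing (QuantSeq) of uterine tissue of 8-week-old female rats, in 12 libraries that form 4 groups of 3. EEP tissue came from horns injured by scraping the lining with a bent needle and given the EEP, the bioprinted endometrial patch, 2 days later. CP tissue came from injured horns given a control patch of Endo-UdECM that was printed without cells. AS tissue came from injured horns, and normal tissue is labelled only as normal. The cells in the patch and the day of harvest are not given in the sources used here. Each patched rat carried the EEP on a single side, with its second horn used as a control or for the CP, so that groups may share animals, and the labels link no library to an animal. The p-values therefore measure the spread between these libraries, which may be technical.

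A library held 4866790 to 8938227 counts in all, and 1202525 to 5832552 for nuclear genes, since mitochondrial transcripts made up 18.9% (EEP 1) to 82.5% (CP 1). Levels below are counts scaled by the trimmed mean of M-values (TMM) and given as CPM, counts relative to library size, and 3 counts corresponded to 0.177 to 0.867 CPM. Each read marks the 3' end of a transcript and no length scale was set, so levels are compared between libraries and not between genes. The labels call the samples endometrium, yet 7 contractile genes of smooth muscle summed to 1253 to 8775 CPM. EEP 1 and AS 1 stood apart within their groups: 8 epithelial markers summed to 1088 CPM in EEP 1 and 166 and 146.5 CPM in EEP 2 and EEP 3, and to 1907 CPM in AS 1 and 122.4 and 169.6 CPM in AS 2 and AS 3. In bulk tissue, fewer cells of a type and less RNA per cell cannot be told apart.

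No member passed an adjusted p under 0.05 in any of the 6 comparisons between groups or in the test over all 4 groups, with edgeR's quasi-likelihood test. Their levels formed 3 patterns over the libraries. Mmp2 and Timp3 were lower in every injured library than in every normal library. Mmp14 and Mmp11 had their highest group means in EEP tissue, but EEP 1 held the lowest Mmp14 of all libraries. The mean of Mmp14 was 903 CPM in EEP (SD 663) and 811 CPM in CP (SD 314). Mmp7 and Timp1 were highest in AS 1 and EEP 1. Calls were rare among all genes too. They made up 0.0144% of the tested genes for EEP against AS, 0.00719% for CP against AS and 0% for EEP against CP. Against normal tissue they made up 0.00719% for EEP, 0% for CP and 0.00719% for AS, and 0.0359% over the 4 groups.

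**Figure D1:**
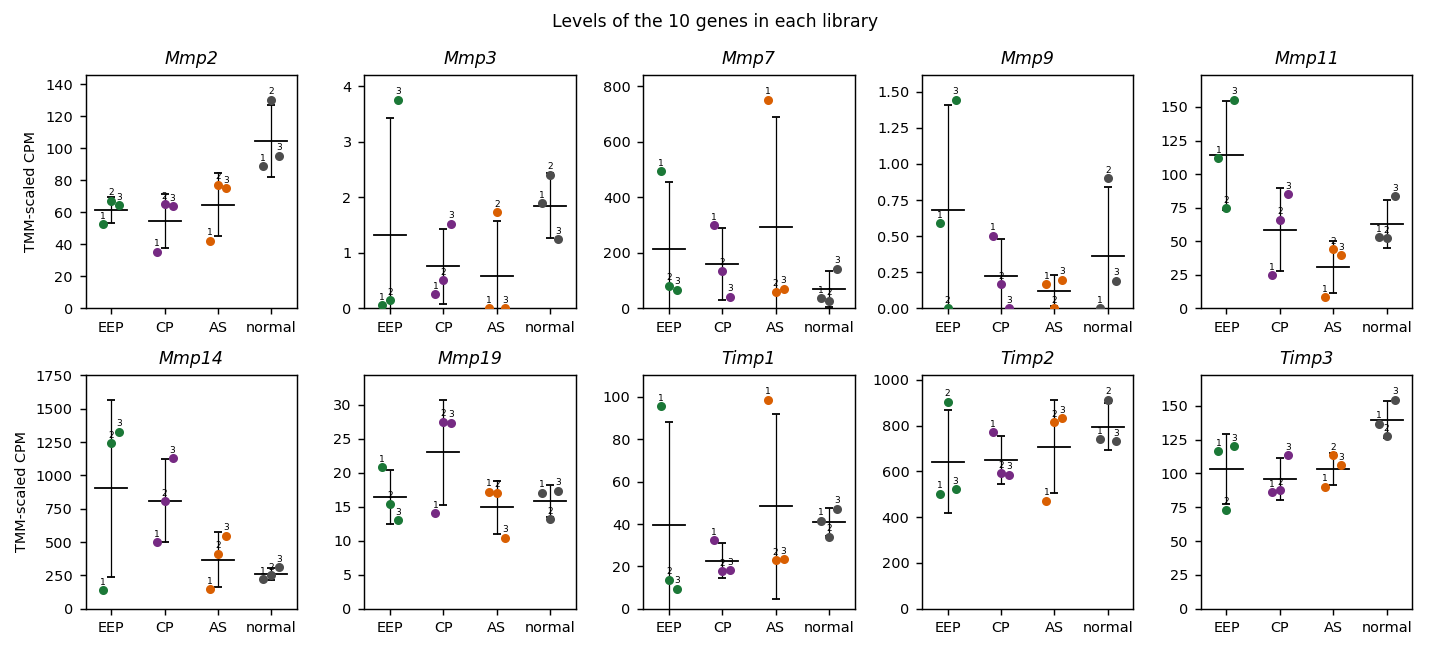
TMM-scaled CPM of the 10 genes (vertical axes, each starting at 0) in the EEP, CP, AS and normal libraries, with the replicate number above each point, the mean as a horizontal line and the SD as a bar that is cut at 0 (n = 3). Mmp2 and Timp3 lie lower in all 9 injured libraries than in the 3 normal ones, and Mmp7 and Timp1 are highest in AS 1 and EEP 1.

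The regions before the transcription start of Mmp7, Timp1 and Mmp11 are shown, since Mmp7 and Timp1 shared a pattern over the libraries and Mmp11 had the smallest p of any member. The sequences are those of RefSeq on the GRCr8 assembly, whose promoter table held 6 of the 10 members. Each line gives the 150 bases before the start, 5′ to 3′ in the direction of transcription. Capitals mark matches on either strand to TGANTCA (the AP-1 motif), TATAAA (the TATA motif) or GGGCGG (the GC box). The Mmp7 stretch is chr8:13132893-13133042 on the plus strand, the Timp1 stretch chrX:3771123-3771272 on the minus strand and the Mmp11 stretch chr20:12730134-12730283 on the plus strand.
Mmp7: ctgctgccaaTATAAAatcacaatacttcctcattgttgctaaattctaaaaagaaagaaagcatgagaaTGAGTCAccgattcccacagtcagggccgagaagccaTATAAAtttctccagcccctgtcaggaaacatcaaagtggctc
Timp1: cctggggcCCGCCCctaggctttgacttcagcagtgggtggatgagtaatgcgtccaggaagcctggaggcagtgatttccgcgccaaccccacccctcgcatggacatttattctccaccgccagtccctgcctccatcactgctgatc
Mmp11: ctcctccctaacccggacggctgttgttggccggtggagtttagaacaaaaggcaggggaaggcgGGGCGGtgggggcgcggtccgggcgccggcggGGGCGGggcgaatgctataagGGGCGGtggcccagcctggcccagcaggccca

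In the Mmp7 stretch the AP-1 motif begins 80 bases before the start, and the TATA motif begins 140 and 43 bases before it. Mmp3, from the same gene cluster, also has 1 AP-1 motif, 71 bases before its start, and 1 TATA motif, 32 bases before it. Mmp11 has 3 GC boxes, Timp3 has 2, and Timp1 and Timp2 have 1 each. Over the same window of all 33469 promoters in the table, 3.69% hold the AP-1 motif, 8.0% the TATA motif and 26.0% the GC box. No motif overlapped another in the stretches shown. A match of letters describes the sequence and does not show a binding site.

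Mmp2 (chromosome 19, 14154657 to 14182870 on mRatBN7.2, as for the genes that follow) is a gelatinase that cleaves type IV collagen and denatured collagens and is made largely by stromal cells. Its levels were 52.55, 67.4 and 64.5 CPM in EEP 1, 2 and 3, 35.4, 65.1 and 63.9 CPM in CP 1, 2 and 3 and 42.2, 77.3 and 74.9 CPM in AS 1, 2 and 3, against 88.7, 130.4 and 95.3 CPM in normal 1, 2 and 3. All 9 injured libraries were below all 3 normal libraries, and the injured groups overlapped each other. The log2 fold change of Mmp2 against normal tissue was -0.77 for EEP (SE 0.357, adjusted p = 0.651 with edgeR), -0.93 for CP (SE 0.358, adjusted p = 0.296) and -0.69 for AS (SE 0.356, adjusted p = 0.895).

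Timp3 (chromosome 7, 17520827 to 17571850), the inhibitor that stays bound to the extracellular matrix, showed the same separation. It stood at 116.2, 73.3 and 120.2 CPM in EEP 1, 2 and 3, 86.2, 87.5 and 113.6 CPM in CP 1, 2 and 3 and 90.3, 113.4 and 105.9 CPM in AS 1, 2 and 3, against 136.8, 127.6 and 154.3 CPM in normal 1, 2 and 3. Every injured library again lay below every normal one, and the EEP, CP and AS groups overlapped. Its log2 fold change against normal tissue was -0.44 for EEP, -0.54 for CP and -0.44 for AS. The adjusted p-values of edgeR were 0.824 for EEP, 0.491 for CP and 0.948 for AS.

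The 3 comparisons with normal tissue share their normal libraries, so 1 contrast of the mean of the injured groups with normal tissue was added after these levels had been seen. In it Mmp2 had a log2 fold change of -0.80 (SE 0.277, adjusted p = 0.391 with edgeR and 0.195 with DESeq2). Timp3 had one of -0.47 (SE 0.252, adjusted p = 0.613 with edgeR and 0.503 with DESeq2). Of all tested genes, 0.0719% were called by edgeR and 0.798% by DESeq2 in this contrast, with 0 of 9 members called by edgeR and 0 of the 7 that had an adjusted p by DESeq2. Mmp2 and Mmp14 had an unadjusted p under 0.05, beside 8.95% of genes. The 2 members whose groups did not overlap were Mmp2 and Timp3, beside 1.47% of genes in either direction and 0.841% that were lower. With any library left out, the value stayed between -0.91 and -0.61 for Mmp2 and between -0.53 and -0.39 for Timp3. Every injured library lay below every normal one for these 2 genes, so leaving 1 out could hardly change the sign. Mmp14 stayed between 1.19 and 1.48 in the same contrast.

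Markers of stroma, with 8 of 8 in the table, summed to 7357, 3347 and 2477 CPM in EEP 1, 2 and 3, to 3660, 3428 and 5147 CPM in CP and to 7531, 5468 and 5243 CPM in AS, against 6523, 8709 and 8837 CPM in normal 1, 2 and 3. EEP 1 and AS 1 thus overlapped the normal libraries in this sum, while the other injured libraries were below them. Col1a1 and Col3a1 held most of the sum, at 3496 and 1971 CPM in EEP 1 and 4502 and 1723 CPM in AS 1. Single markers differed. In AS 1 Pdgfra (23.94 CPM), Lum, Vim, Col3a1 and Thy1 (1.172 CPM) lay below every normal library, Col1a1 and Dcn among them and Pdgfrb above them. In EEP 1 Lum and Thy1 lay below every normal library and the other markers among them. The part of these markers in the levels of Mmp2 and Timp3 was not tested.

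Timp2 (chromosome 10, 103541199 to 103590611), which inhibits Mmp2 and also helps Mmp14 to present pro-Mmp2 for activation, showed no such separation. Its levels were 501.8, 904 and 523 CPM in EEP 1, 2 and 3, 772, 593 and 586 CPM in CP 1, 2 and 3 and 472, 815 and 833 CPM in AS 1, 2 and 3, against 740.5, 912 and 732 CPM in normal 1, 2 and 3. All groups overlapped. The log2 fold changes of Timp2 against normal tissue were -0.31 for EEP, -0.29 for CP and -0.17 for AS, each smaller than its standard error of 0.368, and the adjusted p over the 4 groups was 0.946 with edgeR.

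Mmp14 (chromosome 15, 27887795 to 27897020), the membrane-bound protease MT1-MMP that cleaves fibrillar collagen and activates pro-Mmp2 at the cell surface, had higher group means in EEP and CP than in AS and normal tissue. It was at 139.8, 1242 and 1328 CPM in EEP 1, 2 and 3, 500.7, 805 and 1128 CPM in CP 1, 2 and 3 and 147.3, 411.5 and 548 CPM in AS 1, 2 and 3, against 220.6, 251 and 309 CPM in normal 1, 2 and 3. All CP libraries lay above all normal ones, and CP 1 lay below AS 3. EEP 1 was the lowest of the 12 libraries, while EEP 2 and EEP 3 were the highest. Endothelial markers, with 6 of 6 in the table, summed to 21.5, 77.6 and 202.3 CPM in EEP 1, 2 and 3, 92.25, 114 and 110.7 CPM in CP 1, 2 and 3 and 58.6, 107.1 and 87.55 CPM in AS 1, 2 and 3, against 65.2, 55.9 and 58.1 CPM in normal 1, 2 and 3. EEP 1 was lowest and EEP 3 highest in this sum as in Mmp14, but other libraries were ordered otherwise. EEP 2, next to EEP 3 in Mmp14, lay below every CP library, AS 2 and AS 3 in the sum. AS 1, next to EEP 1 in Mmp14, lay above normal 2 and normal 3. The part of these markers in the levels of Mmp14 was not tested.

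Against normal tissue the log2 fold change of Mmp14 was 1.79 in EEP (SE 0.642, adjusted p = 0.555 with edgeR), 1.64 in CP (SE 0.639, adjusted p = 0.301) and 0.50 in AS (SE 0.624, adjusted p = 0.982). The value for EEP was 2.30 without EEP 1 (adjusted p = 0.024) and 1.44 without EEP 3 (adjusted p = 0.999). Leaving out EEP 1 also raised the number of all genes called over the 4 groups, far above that with all 12 libraries. The fit of CP and normal libraries alone gave 1.64 with an adjusted p of 0.0161. That fit called 589 genes in all, against 0 in the fit of all 12 libraries. The authors' deposited table gives Mmp14 a ratio of 3.36 with a p-value of 0.169 for EEP and of 3.04 with a p-value of 0.0391 for CP against normal tissue. These p-values are unadjusted, and the authors' q-value for CP was 0.616. Against AS tissue, Mmp14 had 1.29 in EEP (SE 0.633, adjusted p = 0.518) and 1.14 in CP (SE 0.631, adjusted p = 0.48), and both comparisons share the AS libraries. EEP and CP differed by 0.15 (SE 0.623, adjusted p = 0.9997), by 0.66 without EEP 1, by -0.23 without EEP 3 and by -0.10 without CP 1.

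In EEP against normal tissue 2 members, Mmp2 and Mmp14, had an unadjusted p under 0.05, beside 7.56% of all tested genes. The 2 members whose groups did not overlap there were Mmp2 and Timp3, beside 14.6% of genes in either direction and 8.44% that were lower. In CP against normal tissue the same 2 members had an unadjusted p under 0.05, beside 12.7% of genes. Of the 4 members that did not overlap in CP, beside 27.9% of genes, Mmp14 was higher, beside 13.1%, and Mmp2, Timp1 and Timp3 were lower, beside 14.8%. DESeq2 gave an adjusted p to 7 members for EEP and 8 for CP and called 0 of them, beside 0.561% of all tested genes for EEP and 1.98% for CP. Those are 78 of the 9297 genes with an adjusted p for EEP and 276 of 13584 for CP.

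**Figure D2:**
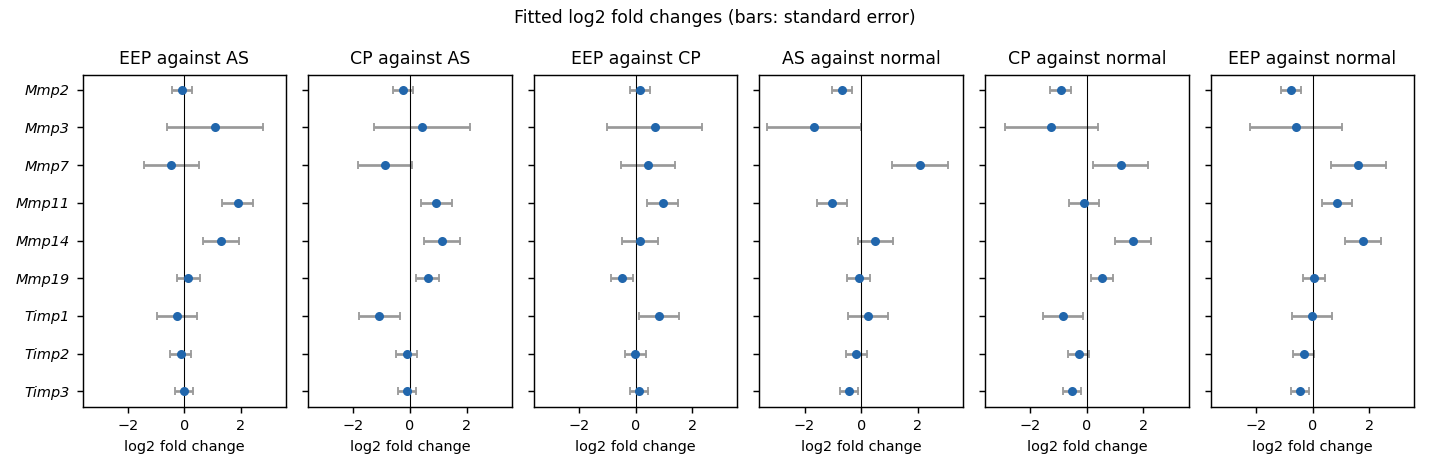
Fitted log2 fold changes of the 9 tested members (horizontal axes) in the 6 comparisons between groups, with the standard error as a bar. Mmp11 in EEP against AS (1.89) and Mmp14 in EEP and CP against normal tissue (1.79 and 1.64) lie farthest above 0 in units of their error, and no value passed an adjusted p under 0.05.

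Mmp11 (chromosome 20, 12730846 to 12739629), stromelysin-3, is a protease of stromal fibroblasts that is known from tissue remodelling and is activated inside the cell by furin. It had 111.8, 74.75 and 155.5 CPM in EEP 1, 2 and 3, 24.9, 66.1 and 85.1 CPM in CP 1, 2 and 3 and 8.54, 44.3 and 39.5 CPM in AS 1, 2 and 3, against 53.04, 52.5 and 83.5 CPM in normal 1, 2 and 3. The EEP libraries were all above the AS libraries, and the AS libraries were all below the normal ones. CP overlapped each of the other groups.

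EEP against AS tissue gave Mmp11 a log2 fold change of 1.89 (SE 0.551), which is 3.70-fold, with an unadjusted p of 0.00333 and an adjusted p of 0.348 in edgeR's quasi-likelihood test. DESeq2 called it, with a log2 fold change of 1.92 and an adjusted p of 0.0268. It called 140 genes there, which is 1.01% of all tested genes. Its own filter left only 3650 genes and 6 members with an adjusted p in this comparison, so the share among those genes is larger. With no low-count filter edgeR called it too, with an adjusted p of 0.00521, but that setting called 143 genes in this comparison, against 2 with the filter. Mmp11 was the 1 of 9 members with an unadjusted p under 0.05, beside 10.1% of genes, and the 1 member whose groups did not overlap, beside 13.2% of genes in either direction and 6.18% that were higher. The authors' deposited table gives it a ratio of 3.64 and an unadjusted p-value of 0.0273, and their q-value was not under 0.05.

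The value of Mmp11 in EEP against AS lay between 1.495 without AS 1 and 2.29 without AS 2 when each library was left out. EEP against CP was 0.95 (SE 0.536, adjusted p = 0.9997), and 0.60 without CP 1. CP against AS was 0.93 (SE 0.540, adjusted p = 0.498), and 0.53 without AS 1. Against normal tissue Mmp11 stood at 0.85 in EEP (adjusted p = 0.785), -0.10 in CP (adjusted p = 0.95) and -1.03 in AS (adjusted p = 0.895), and at -0.60 in AS without AS 1.

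Sums of other cell markers also separated EEP from AS tissue. The 4 markers of stratified epithelium that the table held summed to 111.1, 79.7 and 56.65 CPM in EEP 1, 2 and 3, against 15.9, 0.384 and 0.198 CPM in AS 1, 2 and 3. In CP 1, 2 and 3 they summed to 4.78, 27.03 and 35.2 CPM, so that CP 2 and CP 3 also lay above AS. Smooth muscle markers, 7 of 7, summed to 3020, 2280 and 1253 CPM in EEP 1, 2 and 3, against 8775, 4312 and 4584 CPM in AS 1, 2 and 3. CP 1, 2 and 3, at 3058, 2174 and 3091 CPM, also lay below every AS library. Singly, Acta2, Actg2 and Krt13 overlapped between EEP and AS, and the other markers of these lists did not. The part of these markers in the difference of Mmp11 was not tested.

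Mmp7 (chromosome 8, 4848186 to 4855908), matrilysin, is a small protease made by epithelial cells of glands and of the uterine lining. It was at 493.6, 81.95 and 67.9 CPM in EEP 1, 2 and 3, 300.9, 136.5 and 41.9 CPM in CP 1, 2 and 3 and 752, 61.01 and 70.75 CPM in AS 1, 2 and 3, against 37.96, 28.1 and 143.0 CPM in normal 1, 2 and 3. A single library led each group, and all groups overlapped. EEP against AS had a log2 fold change of -0.46 (SE 0.960, adjusted p = 0.909 with edgeR), which was 1.77 without AS 1 and -1.98 without EEP 1. CP against AS had -0.88 (SE 0.967), which was 1.31 without AS 1. AS against normal tissue had 2.08 (SE 0.998, adjusted p = 0.889), which was -0.10 without AS 1 and 3.16 without normal 3. EEP against normal tissue had 1.62 (SE 0.984, adjusted p = 0.766), which was 0.10 without EEP 1.

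Timp1 (chromosome X, 1212969 to 1217714), a soluble inhibitor of many metalloproteases that is induced in inflamed and healing tissue, was high in the same libraries. It stood at 95.5, 13.7 and 9.54 CPM in EEP 1, 2 and 3, 32.4, 17.6 and 18.3 CPM in CP 1, 2 and 3 and 98.6, 22.8 and 23.5 CPM in AS 1, 2 and 3, against 41.65, 33.9 and 47.3 CPM in normal 1, 2 and 3. AS 1 and EEP 1 were above every other library, and the other 7 injured libraries were below the lowest normal one. EEP against AS had a log2 fold change of -0.27 (SE 0.705, adjusted p = 0.931 with edgeR), which was -2.05 without EEP 1 (adjusted p = 0.12) and 0.85 without AS 1. EEP against normal tissue had -0.03, and -1.81 without EEP 1 (adjusted p = 0.139). CP against normal had -0.85 (SE 0.715, adjusted p = 0.644), with all CP libraries below all normal ones, and it was 0.31 with the mitochondrial ratio as a covariate. DESeq2 gave Timp1 no p-value.

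The sum of the epithelial markers followed the same libraries. All 8 were in the table and none was at 0 in any library. Krt8, Krt19, Epcam, Cdh1 and Cldn7 were highest in AS 1 and EEP 1. Krt8 reached 324 CPM in EEP 1 and 605.8 CPM in AS 1, and Krt19 284.5 and 952.9 CPM. Krt18 was highest in AS 1, with normal 3 above EEP 1. Cldn3 was highest in EEP 1, but at 22.1 CPM in AS 1 it lay below AS 2, AS 3 and every normal library. Foxa2 was lowest in EEP 1, at 2.66 CPM, and was at 7.367 CPM in AS 1. The sum of the 8 markers was 541, 235 and 159.8 CPM in CP 1, 2 and 3, against 424.6, 168.8 and 472 CPM in normal 1, 2 and 3, besides the EEP and AS sums given above. AS 1 and EEP 1, with the highest sums, had the most Mmp7 and Timp1 and the least Mmp14. Macrophage and monocyte markers, 8 of 8, were also highest in AS 1, at 2529 CPM, but summed to 567 CPM in EEP 1 and 856.5 CPM in CP 3. The part of either marker list in these levels was not tested.

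**Figure D3:**
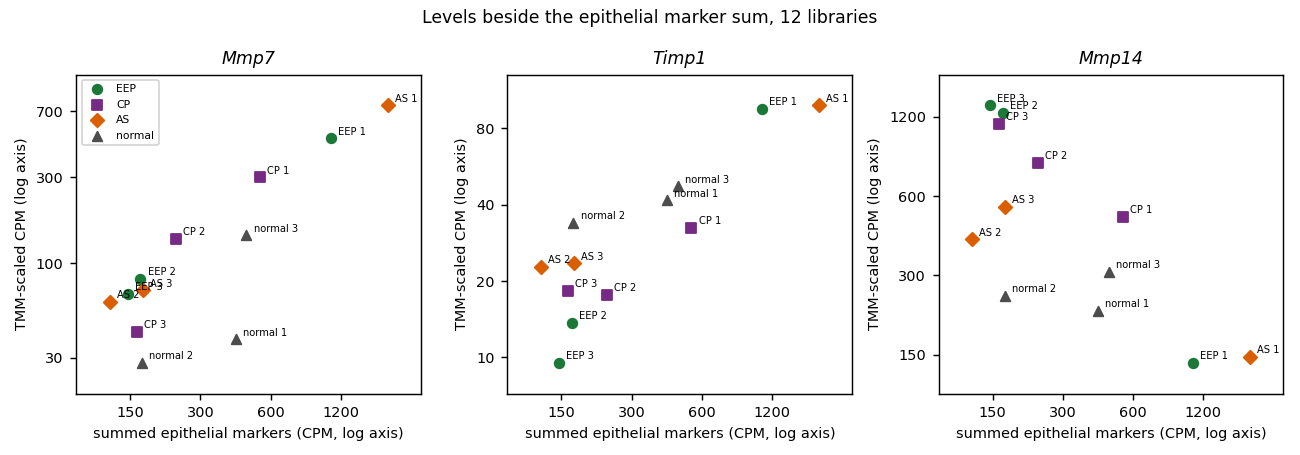
TMM-scaled CPM of Mmp7, Timp1 and Mmp14 (vertical log axes) against the summed CPM of 8 epithelial markers (horizontal log axes) in the 12 libraries, coloured and shaped by group. EEP 1 (1088 CPM of markers) and AS 1 (1907 CPM) lie at the right, with the highest Mmp7 and Timp1 and the lowest Mmp14.

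The same 2 libraries differed in their mitochondrial share, which was 18.9% in EEP 1 and 68.75% in AS 1. With the log2 ratio of mitochondrial to nuclear counts as a covariate, the log2 fold change of EEP against AS was -1.91 for Timp1 (adjusted p = 0.215) and -1.795 for Mmp7 (adjusted p = 0.436). That of Mmp14 in CP against normal tissue was 0.90 with this covariate (adjusted p = 0.897), and in AS against normal tissue it was -0.35 (adjusted p = 0.957).

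**Figure D4:**
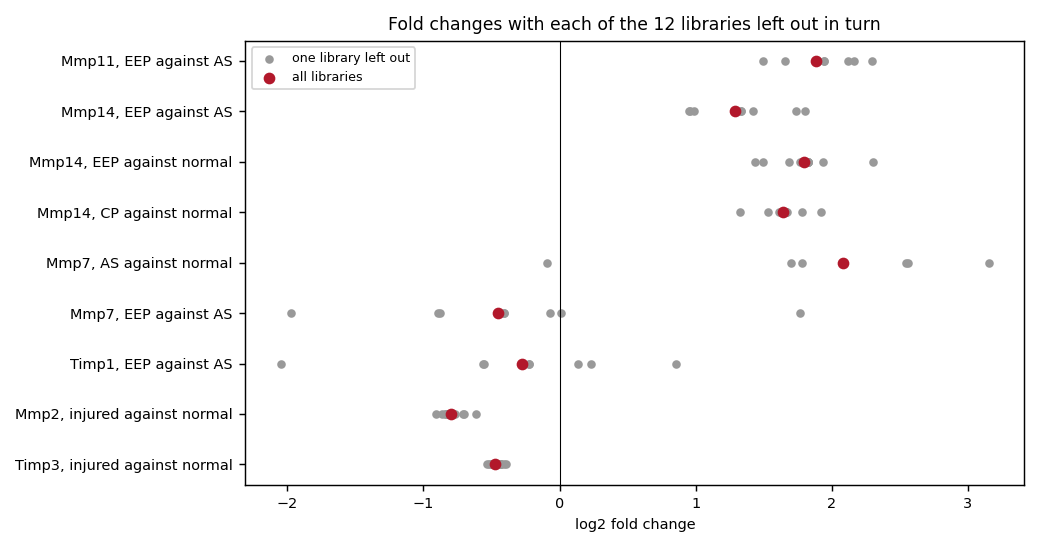
Log2 fold changes (horizontal axis) of members in 9 contrasts with all libraries (large red points) and with each of the 12 libraries left out in turn (small grey points). Mmp2 and Timp3 spread least, between -0.91 and -0.61 and between -0.53 and -0.39. They are shown in injured against normal tissue, a contrast of 9 with 3 libraries in which 1 injured library weighs less. That contrast was added after the levels had been seen. The points of Mmp7 and Timp1 lie on both sides of 0.

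The remaining proteases were even or low. Mmp19 (chromosome 7, 1221229 to 1229555), a protease that acts on basement membrane proteins, stood at 20.8, 15.5 and 13.01 CPM in EEP 1, 2 and 3, 14.1, 27.5 and 27.4 CPM in CP 1, 2 and 3 and 17.25, 17.07 and 10.5 CPM in AS 1, 2 and 3, against 17.08, 13.2 and 17.4 CPM in normal 1, 2 and 3. CP 2 and CP 3 were highest, while CP 1 lay among the other groups. CP against AS had a log2 fold change of 0.62 (SE 0.404, adjusted p = 0.544 with edgeR), and the adjusted p of Mmp19 over the 4 groups was 0.808.

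Mmp3 (chromosome 8, 4640397 to 4653963), stromelysin-1, which cleaves proteoglycans and activates other proenzymes of the family, had 1, 1 and 13 counts in EEP 1, 2 and 3, 1, 3 and 8 counts in CP 1, 2 and 3 and 0, 9 and 0 counts in AS 1, 2 and 3, against 18, 24 and 13 counts in normal 1, 2 and 3. Most patched and AS libraries were at or near the floor of 3 counts. The log2 fold change of AS against normal tissue was -1.67 with a standard error of 1.67. It rested on AS 2, which held every AS count: without it the fitted value was -6.80, which depends on the prior count and is no bound. Mmp9 (chromosome 3, 153684158 to 153692118), the gelatinase of neutrophils and macrophages, had 10, 0 and 5 counts in EEP 1, 2 and 3, 2, 1 and 0 counts in CP and 1, 0 and 1 counts in AS, against 0, 9 and 2 counts in normal 1, 2 and 3. A difference in Mmp9 was not detectable at this depth. The 6 neutrophil markers, all in the table, summed to 10.6, 22.5 and 51.2 CPM in EEP 1, 2 and 3, 12.6, 21.8 and 21.1 CPM in CP and 26.6, 11.7 and 11.07 CPM in AS, against 6.22, 10.4 and 13.8 CPM in normal 1, 2 and 3. EEP 3 was highest in this sum and in the CPM of Mmp9, but its 1.445 CPM stood for 5 counts, near the floor of 3. EEP 1 held more counts, 10. Normal 2, next in the CPM of Mmp9 at 0.901 CPM, had a neutrophil sum of only 10.4 CPM. S100a8 and S100a9 were found in all 12 libraries, while Elane was at 0 in all of them, Cxcr2 was found in normal 1 alone and Mpo in CP 1 alone. The part of these markers in Mmp9 was not tested.

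Mmp7 and Mmp3 belong to a cluster of 10 metalloprotease genes that spans 358 kb of chromosome 8, from 4497960 to 4855908. Mmp7 held 97% of the cluster's counts over the 12 libraries, with 18662, followed by Mmp12 with 327, Mmp20 with 127 and Mmp3 with 91. Mmp1, Mmp1b and Mmp10 had no count. These genes are related in sequence, and how the authors treated reads that match several genes is not given in the sources used here. Members also overlap other genes, and the strand used in counting is not given, but the partners held few counts. Syn1 had 11 counts against 4124 of Timp1, Syn3 had 54 against 10176 of Timp3, and Cep295nl had 24 against 61046 of Timp2. LOC120098543 had 19 counts against 6597 of Mmp2, and LOC102556477 had 26 against 18662 of Mmp7.

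The family as a whole had no common direction. In EEP against AS 5 of 9 members had a log2 fold change above 0, beside 50.9% of all genes, and their median was 0.00016 against 0.02 for all genes. In CP against AS 4 were above 0, beside 49.2%, with a median of -0.11 against -0.02. In EEP against CP 7 were above 0, beside 52.7%, with a median of 0.16 against 0.04. In EEP against normal tissue 4 were above 0, beside 49.7%, with a median of -0.03 against -0.01. In CP against normal tissue 3 were above 0, beside 48.4%, with a median of -0.29 against -0.04. In AS against normal tissue 3 were above 0, beside 51.6%, with a median of -0.17 against 0.03. In the added contrast of injured with normal tissue 3 were above 0, beside 47.6%, with a median of -0.21 against -0.04.

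For CP against AS 0 of 9 members had an unadjusted p under 0.05, beside 12% of all genes, and 0 did not overlap, beside 17.9%. For EEP against CP 0 had an unadjusted p under 0.05, beside 2.99%, and 0 did not overlap, beside 6.94%. For AS against normal tissue 0 had an unadjusted p under 0.05, beside 5.55%. There Mmp2, Mmp11 and Timp3 did not overlap, 3 of 9 members beside 14.8% of genes in either direction, and all were lower, beside 8.26%. DESeq2 called 0 members in these comparisons, of 7 with an adjusted p for CP against AS, 8 for EEP against CP and 7 for AS against normal tissue, beside 0.949% of genes for CP against AS, 0.00719% for EEP against CP and 0.244% for AS against normal tissue. Over the 4 groups 2 of 9 members, Mmp11 and Mmp14, had an unadjusted p under 0.05, beside 10.5% of genes. Their adjusted p-values with edgeR were 0.404 and 0.43, and DESeq2 called 0 of the 8 members that had an adjusted p, beside 2.05% of genes.

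Other genes of the system were read from a list of 36 further metalloproteases, inhibitors, activators and clearance receptors, of which 27 could be tested. None was called with edgeR in the 6 comparisons or over the 4 groups. In EEP against AS 19 of the 27 had a log2 fold change above 0, with a median of 0.22 against 0.02 for all tested genes. In CP against AS and in EEP against CP 14 of the 27 were above 0, with medians of 0.06 and 0.03. In EEP against normal tissue 12 were above 0, with a median of -0.07, and in CP against normal tissue 10, with a median of -0.18. In AS against normal tissue 5 were above 0 and 22 below, with a median of -0.31 against 0.03. These comparisons share their AS, CP, EEP and normal libraries with each other, and the shares of all genes above 0 are those given for the members. In the added contrast of injured with normal tissue 9 were above 0, with a median of -0.22, and 1 of the 27, Plau, was called.

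Plau, the urokinase that starts the plasmin cascade upstream of several of these proenzymes, stood at 18.7, 12.01 and 12.4 CPM in EEP 1, 2 and 3, 7.29, 5.71 and 8.94 CPM in CP 1, 2 and 3 and 14.2, 12.5 and 13.04 CPM in AS 1, 2 and 3, against 46.6, 16.1 and 62.3 CPM in normal 1, 2 and 3. Normal 2 lay below EEP 1, so the groups overlapped. Plau fell by 1.90 on the log2 scale in injured against normal tissue (SE 0.338, adjusted p = 0.0477 with edgeR and 0.00167 with DESeq2). The call was lost with RLE scaling in place of TMM (log2 fold change -1.88, adjusted p = 0.0506), with a stricter filter (-1.86, 0.0528), with the mitochondrial covariate (-1.76, 0.25) and without any 1 of 9 libraries, up to an adjusted p of 0.521 without normal 3, where the log2 fold change was -1.49. It was kept without normal 2 (0.00465), EEP 1 (0.00954) or AS 1 (0.0423). In CP against normal tissue Plau had a log2 fold change of -2.51 (SE 0.477, adjusted p = 0.106 with edgeR and 6.13e-04 with DESeq2). Plaur, its receptor, averaged 2.73 ± 1.68 CPM in EEP, 1.18 ± 0.95 CPM in CP, 1.965 ± 2.15 CPM in AS and 1.93 ± 0.423 CPM in normal tissue (SD, n = 3 each), and its groups overlapped in all 6 comparisons.

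Reck, a membrane-anchored inhibitor of several metalloproteases, was lower in all 9 injured libraries than in the normal ones. It was at 16.2, 6.004 and 2.60 CPM in EEP 1, 2 and 3, 11.8, 16.3 and 8.18 CPM in CP 1, 2 and 3 and 9.54, 14 and 15.2 CPM in AS 1, 2 and 3, against 25.7, 38.5 and 21.01 CPM in normal 1, 2 and 3. Its log2 fold change in injured against normal tissue was -1.37 (SE 0.410), and it did not pass (adjusted p = 0.364 with edgeR and 0.132 with DESeq2). Mmp17, the membrane-anchored protease MT4-MMP, was at 8.99, 16.96 and 7.80 CPM in EEP 1, 2 and 3, 15.6, 12.1 and 32.7 CPM in CP 1, 2 and 3 and 60.3, 27.8 and 26.7 CPM in AS 1, 2 and 3, against 12.8, 8.11 and 12.7 CPM in normal 1, 2 and 3. AS lay above EEP and normal tissue with no overlap, and CP 3 lay above AS 2 and AS 3. The log2 fold change of Mmp17 was -1.76 in EEP against AS (SE 0.493, adjusted p = 0.348 with edgeR) and 1.775 in AS against normal tissue (SE 0.490, adjusted p = 0.596). DESeq2 called Plau and Mmp17 over the 4 groups, 2 of the 26 genes of the list that had an adjusted p, beside 2.05% of all genes.

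Ctsk, the collagen-cleaving cathepsin K, averaged 23.1 ± 10.2 CPM in EEP, 12.1 ± 4.92 CPM in CP, 21.9 ± 4.58 CPM in AS and 39.1 ± 11.9 CPM in normal tissue (SD, n = 3 each). Its log2 fold change in CP against normal tissue was -1.68 (SE 0.441, adjusted p = 0.194 with edgeR and 0.0266 with DESeq2), and in EEP against CP it was 0.93 (SE 0.436, adjusted p = 0.9997). Mmp12, the macrophage elastase, was at 18.9, 2.69 and 2.09 CPM in CP 1, 2 and 3, against 2.85, 1.15 and 0.593 CPM in AS 1, 2 and 3. CP 1 held most of it and the groups overlapped (log2 fold change 2.33, SE 0.979, adjusted p = 0.368). Adamts4, an aggrecan-cleaving protease, was below AS in every EEP and every CP library, with 9, 5 and 0 counts in EEP and 0, 1 and 4 counts in CP, against 13, 10 and 13 counts in AS. Its adjusted p against AS was 0.562 for EEP and 0.42 for CP with edgeR. Mmp25, the leukocyte protease MT6-MMP, had 23, 0 and 17 counts in EEP 1, 2 and 3 and none in AS, which made it at least 8.01-fold higher in EEP, set against 3 counts over the AS group, and at least 5.28-fold without EEP 3. The groups overlapped at 0 counts, and the adjusted p was 0.433 with edgeR. Mmp13, a collagenase, had 6 counts, all in normal 2.

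The genes most like 3 of the members were found by the Pearson correlation r of log2(CPM + 1) over the 12 libraries. For Mmp2 they were RGD1306271 (r = 0.91), Cth (0.899) and Igdcc4 (0.892), and 0.799, 0.904 and 0.801 without normal 2 and CP 1, the libraries farthest from its median. For Mmp7 they were Rarres1 (0.924), Wwtr1 (0.924) and Fam3b (0.922), and 0.788, 0.797 and 0.926 without AS 1 and EEP 1. For Timp1 they were Kctd1 (0.97), Tmed10 (0.962) and Mgst3 (0.962), and 0.94, 0.943 and 0.927 without the same libraries. These are the closest of 13909 genes, rest on shared libraries and depths, and carry no test.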

How the data were processed

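The authors deposited whole-number raw counts for each gene. Per the labels' protocols and design text, QuantSeq 3' libraries were made from 1000 ng of total RNA and read in single-end mode at 75 bp. The tools named are Bowtie2 (alignment), bedtools (counting) and edgeR (testing); their versions are not given in the sources used here. The deposited information sheet names mRatBN7.2, and the submitters' processing notes name mm10. The mRatBN7.2 coordinates are printed, and chromosome numbers come from the RefSeq table of GRCr8, matched by gene identifier. The deposited table also holds, for each comparison, the authors' ratio of group averages (fold) and their p-value and q-value, whose test is not named. No q-value of a member was under 0.05, and the q-values were not used further.

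Counts were filtered with filterByExpr, scaled by TMM and fitted over all 12 libraries with glmQLFit in edgeR 4.0.16 (R 4.3.3). Contrasts were tested with glmQLFTest, adjusted by Benjamini-Hochberg over 13909 genes and called under 0.05. The biological coefficient of variation was 59.2%. A standard error is the size of the log2 fold change divided by the square root of F. DESeq2 1.42.0 was an alternative. Scripts were tested on simulated data. All 10 members are named. Of the further list, called genes, the 2 with the smallest p in each of EEP against AS, CP against AS, EEP against CP and AS against normal, and Plau, Plaur, Reck, Mmp12 and Mmp13 are named. Most-like genes were also planned for Mmp9, which could not be tested. The members and lists were chosen with earlier results of these data known. Replicates differed by more than sampling noise, so none was merged.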

Additional observations from a re-analysis of the deposited data

How the results depend on the processing

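With all libraries and the fit as described, 0 of 9 members were called in each comparison. With no low-count filter, 3 members were called over the 4 groups (Mmp7, Mmp11 and Mmp14), 1 in AS against normal (Mmp7), 1 in EEP against AS (Mmp11), 2 in EEP against normal (Mmp7 and Mmp14), 1 in CP against normal (Mmp14) and 1 in injured against normal tissue (Mmp7). Of all genes, that setting called 675 over the 4 groups, 154 in AS against normal and 143 in EEP against AS. It called 232 in EEP against normal and 372 in injured against normal tissue. For CP against normal its count of all genes is not given here. It did not exceed the 589 of the fit of 2 groups alone, so the Mmp14 call there has no share beside it. DESeq2 called 1 in EEP against AS (Mmp11), beside 140 of all genes. The fit of 2 groups alone called 1 in CP against normal (Mmp14), beside 589 of all genes. With a library left out, the count ran from 0 to 1 over the 4 groups and in EEP against normal, the 1 being Mmp14 without EEP 1. Leaving out EEP 1 also raised the calls among all genes over the 4 groups, far above the 5 of the fit as described. The rise was thus not limited to Mmp14. For EEP against normal the count of all genes without EEP 1 is not given here, so that Mmp14 call has no share beside it. The cause of the rise without EEP 1 was not tested. RLE scaling, the stricter filter of 5 CPM in 3 libraries, removal of mitochondrial genes and the mitochondrial covariate left the count at 0 in each comparison. Mmp7 in AS against normal, called with no low-count filter at 2.05 (log2), was -0.10 without AS 1. The replicate number as a block also gave 0 members in each comparison, and 18 genes over the 4 groups against 5 without the block. With group means removed, same-numbered libraries of 2 groups correlated at -0.121 to 0.446 over 18 pairs, and in 9 of the 18 the own number was best. For replicate 1 it was best in every pair of groups, and highest between AS 1 and EEP 1 (0.446). These correlations cannot decide whether same-numbered libraries share animals. The numbers were not taken as pairs because the labels link no library to an animal. Counts over all genes varied more: 1 to 675 over the 4 groups (5 in the fit as described), 1 to 154 in AS against normal (1), 1 to 143 in EEP against AS (2), 0 to 230 in CP against AS (1), 0 to 5 in EEP against CP (0), 0 to 232 in EEP against normal (1), 0 to 589 in CP against normal (0) and 0 to 372 in injured against normal tissue (10). Low counts limit Mmp3 and Mmp9, and EEP 3 had the fewest nuclear counts, 1202525.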
